A study of Mus musculus with 6 samples.

Results

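Genes of the DNA replication machinery were compared between blood stem cell-enriched bone marrow of mice that lack the nuclear receptors Nr4a1 and Nr4a3 and that of wild-type mice. The list holds 48 genes of origin licensing, the replicative helicase, the polymerases, the sliding clamp and its loader, single-strand binding and strand joining, nucleotide supply, and histone supply and chromatin assembly. A gene was taken as measured where a probe set of the Affymetrix array carries its symbol alone. This gave 47 of the 48 genes, with 104 probe sets, out of 18193 genes and 34945 probe sets with a single symbol in all. Chaf1a, a subunit of the histone chaperone CAF-1, had no such probe set and was not measured. All 47 genes passed the filter on low signals, and so did 97 of their 104 probe sets.

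The DKO (double knockout) group lacked both Nr4a1 and Nr4a3, came from crosses of Nr4a3-/- with Nr4a1-/- animals, and had a hybrid background of C57BL/6 and 129SvJ. The WT group carried neither knockout, and the labels name no strain for it, so the knockouts and any difference of strain cannot be told apart. There were 3 arrays a group. For every array the RNA of 10 to 20 mice, 2 to 3 weeks old, was combined, so errors and p-values measure how such pools vary, not single animals. The cells were sorted as free of lineage markers and positive for Sca1 (Lin-Sca1+), a fraction that holds stem cells and other early progenitors. The comparison asks which transcripts depend on the NR4A receptors in these cells.

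A cell copies its genome once per division. In the phase before, the origin recognition complex (the Orc proteins), Cdc6 and Cdt1 load rings of Mcm2 to Mcm7 onto DNA, and geminin holds Cdt1 back so that no origin is loaded again. Cdc45 and the GINS complex then turn the ring into the working helicase, polymerases copy both strands behind the clamp PCNA, and enzymes such as ribonucleotide reductase supply the building blocks. Transcripts of many of these genes are switched on together by E2F factors as cells leave rest, so quiescent stem cells are known for low levels and dividing progenitors for high ones.

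No replication gene passed the test between DKO and WT cells. In limma's fit over all probe sets, 0 of the 47 rose and 0 fell at an adjusted p under 0.05 (Benjamini-Hochberg), against 1.08% and 0.633% of the 11529 genes tested, or 1.71% in either direction. Over probe sets, 0.807% of the 27022 tested rose and 0.563% fell. The smallest adjusted p was 0.215, for Gins3. At an unadjusted p under 0.05 there were 5 genes, Gins1, Gins3, Rrm2, Cdt1 and Dut, that is 5 of 47 against 16.3% of all genes. Of these 5, 4 had the higher mean in DKO, as 7.61% of all genes did at that p, and 1 the lower, as 8.65% did. The count of 5 changed with single arrays: it was 1 without WT replicate 1, 2 without DKO replicate 3 and 8 without WT replicate 3. It was also 1 with no intensity trend in the fit and 2 with the mean over each gene's probe sets. The share of all genes at that p is not given for these fits. Whether the changes are particular to the replication genes was therefore not tested. Values are log2(signal + 16), where the signal is the authors' scaled MAS5 intensity, and differences are DKO minus WT. Errors of differences are standard errors.

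The differences were small and mostly positive. The median over the 47 genes was 0.17, against -0.01 over all genes tested and 0.04 over the brightest 25% of genes, to which 26 of the 47 belong. The mean was higher in DKO for 37 of the 47 genes, against 49.2% of all genes and 55.5% of the brightest 25%. In 11 genes every DKO array lay above every WT array, and in 3 every DKO array lay below, where 10.7% and 11.3% of all genes did so. Of the 2882 genes of the brightest 25%, 448 lay above and 308 below in this way. Of the 26 replication genes among them, 24 had a higher mean in DKO, and 7 lay above and 1 below without overlap. The list was chosen with results of these data known, so these counts describe it and test nothing.

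**Figure D1:**
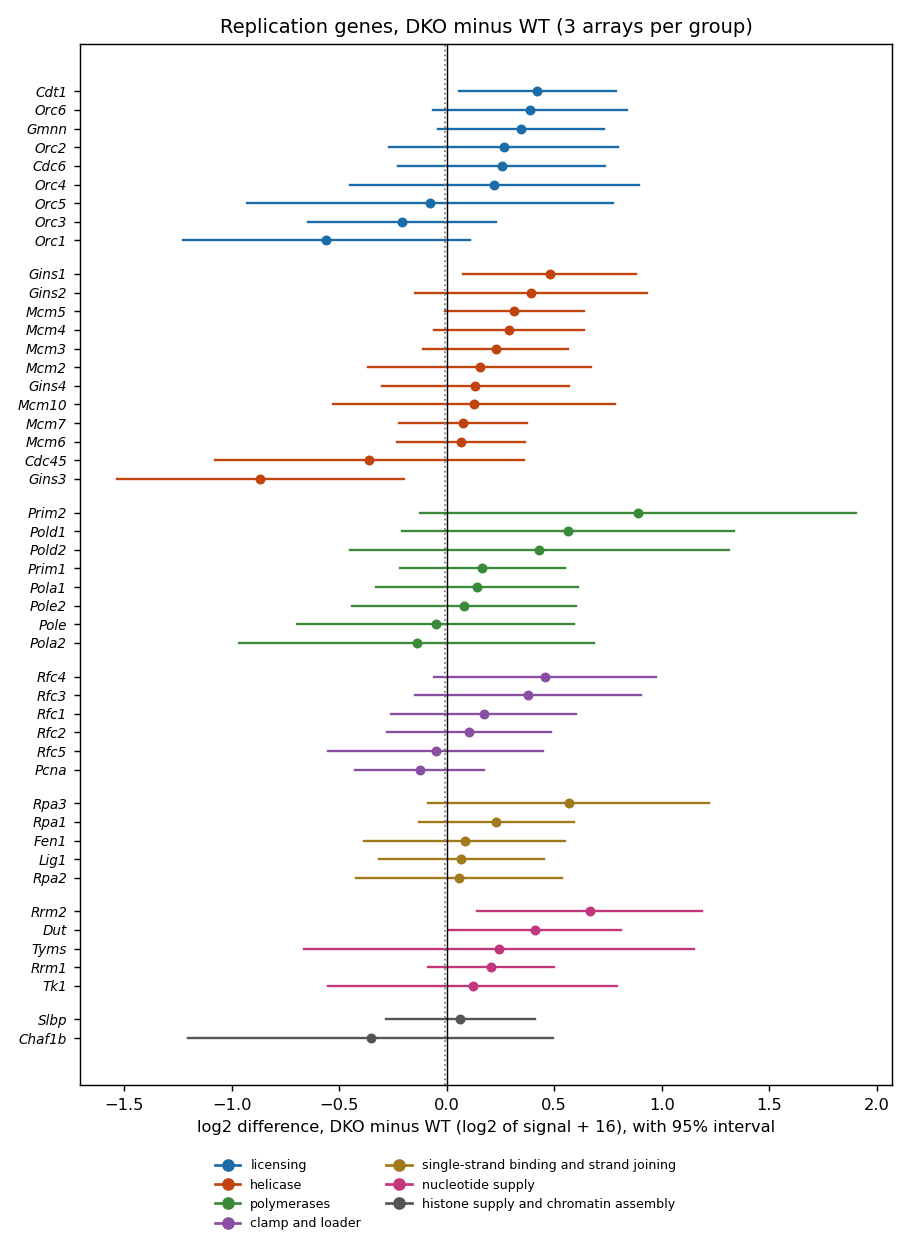
Log2 difference, DKO minus WT, of each of the 47 measured replication genes on the log2(signal + 16) scale, by sub-group. Points are estimates from 3 arrays per group, bars are 95% intervals and the dotted line is the median of all genes tested. Most points lie between 0 and 0.5, and Gins3 at -0.87 and Prim2 at 0.89 are the ends of the range.

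The width of the intervals says what the arrays could have missed. For the brightest probe set of 37 of the 47 genes the 95% interval of the difference lay within -1 and 1. A change by a factor of 2 either way lay outside that interval. For 6 genes it lay within -0.5 and 0.5. Other tested probe sets of some of these genes had intervals that passed 1 or -1. That of Pola1 was -0.19 to 2.43 and that of Dut -1.27 to 0.51. These intervals are not adjusted for the number of genes. The median standard error was 0.22 for the replication genes and 0.33 for all genes tested. Only Gins1, Gins3, Rrm2, Cdt1 and Dut had an interval that left out 0.

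**Figure D2:**
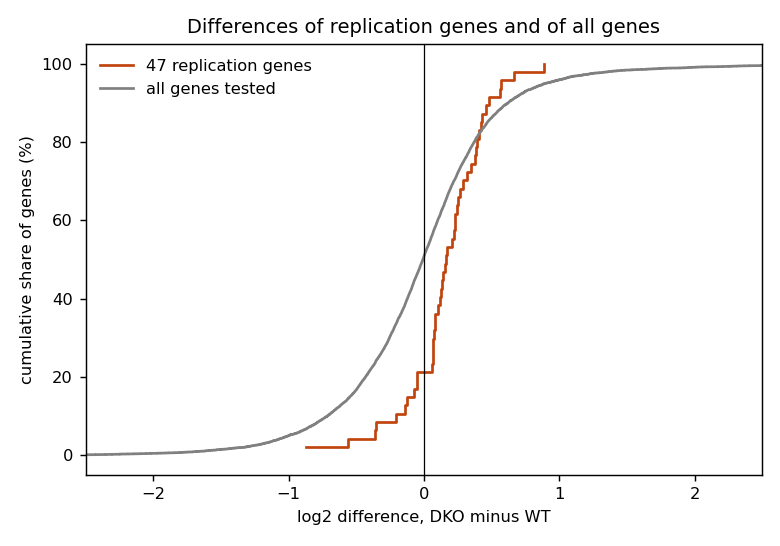
Cumulative share of genes (%) by log2 difference, DKO minus WT, for the 47 replication genes and for all 11529 genes tested. The curve of the replication genes crosses 50% at 0.17, where that of all genes crosses it at -0.01.

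Levels differed between the arrays of a group. The mean level of the 47 genes, each relative to its own mean over the 6 arrays, was 0.07, 0.00 and 0.17 in DKO replicates 1 to 3, against -0.17, -0.09 and 0.01 in WT replicates 1 to 3, so the groups overlapped at DKO replicate 2 and WT replicate 3. The brightest 25% of all genes had levels of -0.04, 0.01 and 0.10 in the DKO arrays and -0.09, -0.02 and 0.04 in the WT arrays. In both sets DKO replicate 3 was highest and WT replicate 1 lowest. Over all genes tested the order was another. Their levels were 0.01, -0.01 and -0.03 in DKO replicates 1 to 3 and -0.01, 0.00 and 0.03 in WT replicates 1 to 3. The part of these array levels in the result was not tested.

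Markers of other blood cells differed between pools. Nr4a1 checked the labels, with a mean signal of 21.4 ± 12.9 (SD, n = 3) in DKO and 1065 ± 230 (n = 3) in WT. The loss of Nr4a3 could not be checked in the fit, as its 3 probe sets lay under the low-value limit. Of these, 2 overlapped between groups, with means of 47.2 and 19.1 in DKO and 52.9 and 98.9 in WT. The remaining 1 did not overlap, with means of 8.5 in DKO and 51.2 in WT. Of 8 stem and progenitor markers 6 were measured, and all 6 had lower means in DKO, with 4 past the threshold. Their summed signal was 9335 to 10632 in the DKO arrays and 20470 to 25243 in the WT arrays. Kit had signals of 1968, 1827 and 1679 in DKO and 2963, 2419 and 2954 in WT, while the gene of Sca1 itself, Ly6a, had no probe set with its symbol alone. All 10 T and NK cell markers had higher means in DKO, with 7 past the threshold, and summed to 10120 to 14913 in DKO and 817 to 1604 in WT, and the 8 markers of mast cells, basophils and eosinophils, with 7 past it, to 25458 to 31974 in DKO and 1360 to 12538 in WT. Of 9 monocyte, macrophage and dendritic markers 7 had higher means in DKO, with 5 past the threshold. Of 5 plasma cell markers 4 had higher means in DKO, with 2 past it. Of the 9 erythroid, 8 B lineage and 9 neutrophil markers 0 passed. Means were lower in DKO for 6, 8 and 5 of them, with median log2 differences of -0.30, -0.87 and -0.03. WT replicate 2 stood apart, with erythroid, B lineage and neutrophil sums of 66724, 9145 and 84892, against at most 27345, 2525 and 37074 in the other WT arrays. Its monocyte, macrophage and dendritic sum of 27662 was also the highest, against 19024 to 22015 in the DKO arrays and 10665 and 8972 in the other WT arrays. In that list Lyz2 and Cd68 had lower means in DKO, at -0.86 and -0.82, and did not pass. The part of these cells in the values below was not tested. Fewer transcripts per cell and fewer cells of a kind cannot be told apart in such pools.

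**Figure D3:**
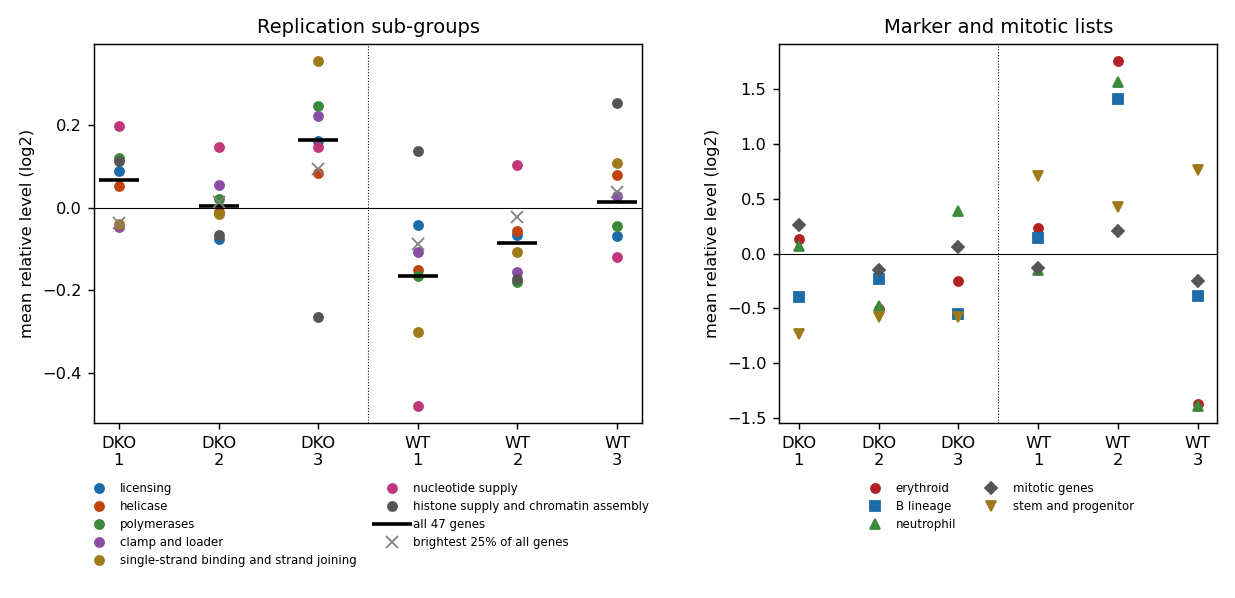
Mean level of gene lists in each array, in log2 units around each gene's own 6-array mean. On the left are the replication sub-groups, all 47 genes and the brightest 25% of all genes (crosses), and on the right the erythroid, B lineage, neutrophil, mitotic and stem cell lists. The replication sub-groups stay between -0.48 and 0.36, while the erythroid list reaches 1.76 in WT replicate 2.

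Promoter sequences show what many of the 47 genes share beyond their function. RefSeq windows of assembly GRCm38.p6, from 250 bases before to 50 after the transcription start, were at hand for 40 of the 48 genes. The exceptions were Gins1, Gins2, Gins4, Gmnn, Mcm4, Pole, Prim2 and Rfc2. They were searched on both strands for the E2F words TTTCCCGC, TTTCGCGC, TTTGCCGC and TTTGGCGC, for the CCAAT box, for the CHR element TTTGAA known from genes of the later cell cycle, and for AAAGGTCA, the site that NR4A receptors are known to bind as single molecules. An E2F word stood in the windows of 14 of the 40 genes (35.0%), against 2.60% of all 27025 genes with a window. Matches of an E2F word and of the reverse of another may overlap, as in Mcm5, and a gene counts once. A CCAAT box stood in 25 of the 40 (62.5%, against 41.1% of all genes) and the CHR element in 5 (12.5%, against 20.2%). AAAGGTCA was in 0 of the 40, against 1.7% of all genes. Matches of different motifs overlapped in 1 case. A match is a description of letters and shows no binding, and a window without a match says nothing about the factor.

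By sub-group, E2F words stood in 5 of 8 helicase genes with a window, in 4 of 8 licensing genes and in 3 of 6 polymerase genes. They stood in 1 of 5 clamp and loader genes, 1 of 5 binding and joining genes, 0 of 5 nucleotide supply genes and 0 of 3 histone and chromatin genes. The 14 genes with a word had a median log2 difference of 0.11, and the 25 measured genes without one 0.17. The 3 genes whose DKO arrays all lay below the WT arrays, Gins3, Orc1 and Orc3, each had an E2F word. Of the 11 genes whose DKO arrays all lay above, 6 had a window and 2 of these, Mcm5 and Rfc3, had a word. Of the 30 genes with a window and overlapping arrays, 9 had a word.

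Shown are the 200 bases before the start of these 5 genes and of Rrm2, which has no E2F word. Sequences run 5′ to 3′ on the gene's strand, and capitals mark E2F words, 8 letters each, and CCAAT boxes, 5 letters each, on either strand.
Orc1, chr4:108579254-108579453, plus strand: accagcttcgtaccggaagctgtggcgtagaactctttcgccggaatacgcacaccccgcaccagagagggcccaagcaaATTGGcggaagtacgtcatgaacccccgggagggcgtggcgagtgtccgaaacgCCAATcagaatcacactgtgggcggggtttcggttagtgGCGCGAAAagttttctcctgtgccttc
Orc3, chr4:34614943-34615142, minus strand: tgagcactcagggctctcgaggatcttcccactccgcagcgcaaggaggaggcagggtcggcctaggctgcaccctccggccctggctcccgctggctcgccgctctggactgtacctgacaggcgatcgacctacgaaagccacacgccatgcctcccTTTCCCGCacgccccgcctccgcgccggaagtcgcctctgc
Gins3, chr8:95633359-95633558, plus strand: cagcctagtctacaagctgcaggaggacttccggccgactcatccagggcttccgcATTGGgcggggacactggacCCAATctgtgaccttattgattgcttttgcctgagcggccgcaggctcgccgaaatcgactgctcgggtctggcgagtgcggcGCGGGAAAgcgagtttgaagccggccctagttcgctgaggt
Mcm5, chr8:75109309-75109508, plus strand: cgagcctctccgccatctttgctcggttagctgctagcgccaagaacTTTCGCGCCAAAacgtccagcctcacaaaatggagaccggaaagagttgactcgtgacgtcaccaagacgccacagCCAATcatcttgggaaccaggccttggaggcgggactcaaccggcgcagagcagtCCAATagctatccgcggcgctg
Rfc3, chr5:151651209-151651408, minus strand: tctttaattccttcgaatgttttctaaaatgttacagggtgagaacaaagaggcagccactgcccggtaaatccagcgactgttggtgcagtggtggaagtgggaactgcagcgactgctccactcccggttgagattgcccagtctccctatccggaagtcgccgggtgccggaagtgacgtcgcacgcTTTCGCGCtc
Rrm2, chr12:24708054-24708253, plus strand: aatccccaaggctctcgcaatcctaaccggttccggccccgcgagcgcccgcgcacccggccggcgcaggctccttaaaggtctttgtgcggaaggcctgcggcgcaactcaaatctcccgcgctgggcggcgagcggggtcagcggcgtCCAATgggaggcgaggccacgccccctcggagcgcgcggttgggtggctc
In Mcm5 an E2F word and the reverse of another overlap, which gives 1 longer stretch of capitals.

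Licensing genes had a median difference of 0.25, with 6 of 9 means higher in DKO and 0 genes past the threshold. The highest difference was that of Cdt1, the loader of the Mcm ring. Its signals were 7867, 6477 and 8724 in DKO and 5258, 5338 and 6576 in WT, and a single WT array, replicate 3, lay just above the lowest DKO array. The log2 difference was 0.42 ± 0.17, with an adjusted p of 0.275 by limma. A second probe set of Cdt1, without overlap, was at 0.31 ± 0.26. Gmnn encodes geminin, the inhibitor of Cdt1, and had signals of 4801, 3853 and 4886 in DKO and 3086, 3811 and 3727 in WT. The groups did not overlap, but DKO replicate 2 and WT replicate 2 nearly met, and the difference was 0.35 ± 0.18. Cdt1 and its inhibitor thus had differences of the same sign and of like size.

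The subunits of the origin recognition complex went in both directions. Orc1, the subunit that comes and goes with the cell cycle, had the lowest difference of the licensing genes, with signals of 286, 311 and 402 in DKO and 510, 546 and 432 in WT. The groups did not overlap and the difference was -0.56 ± 0.31 (adjusted p = 0.435 by limma). Its second tested probe set had the opposite sign at 0.27 ± 0.51 with overlapping groups. Orc6, the smallest subunit, had signals of 1801, 2141 and 1957 in DKO and 1333, 1753 and 1434 in WT. These did not overlap either, and the difference was 0.39 ± 0.21.

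Orc3, a core subunit, had signals of 1564, 1333 and 1656 in DKO and 1780, 1710 and 1757 in WT, a difference of -0.21 ± 0.20 without overlap, and its arrays are given because the groups parted. Its other 2 tested probe sets were lower as well, at -0.44 and -0.35, and their groups overlapped. Orc2 had 3 tested probe sets with means higher in DKO, at 0.27, 0.54 and 0.54, all with overlapping groups. None of these probe sets passed the threshold. Orc4 and Orc5, the other core subunits, were at 0.22 and -0.08, and other probe sets of Orc4 were at 0.27, -0.02 and -0.06. Cdc6, the ATPase that joins the complex to load the Mcm ring, had signals of 2005, 2203 and 1713 in DKO and 1357, 2033 and 1606 in WT. Its groups overlapped and the difference was 0.25 ± 0.22.

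Helicase genes had a median difference of 0.14, with 10 of 12 means higher in DKO and 0 past the threshold. The 4 GINS genes encode the parts of 1 complex, and 3 of them had higher means in DKO. The difference between the genes was not tested. Gins1 had signals of 2523, 2498 and 2956 in DKO and 1877, 1831 and 1988 in WT. All DKO arrays were above all WT arrays, at 0.48 ± 0.18 (adjusted p = 0.259 by limma). Gins3 had signals of 502, 288 and 405 in DKO and 607, 818 and 760 in WT. Here all DKO arrays were below, at -0.87 ± 0.31 (adjusted p = 0.215 by limma), the largest difference downward among the 47 genes.

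The second probe sets of both genes differed from the first. That of Gins1 was at -0.31 ± 0.40, opposite in sign and with all DKO arrays below all WT arrays, and that of Gins3 at -0.16 ± 0.72. With an array left out, the first probe set of Gins1 stayed between 0.40 and 0.52 and that of Gins3 between -1.05 and -0.66. Neither passed in any of these fits. Gins2 had signals of 1223, 1004 and 1141 in DKO and 935, 671 and 975 in WT, without overlap, at 0.39 ± 0.25. Gins4 was at 0.13 ± 0.20 with overlapping groups.

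For the 6 genes of the Mcm ring the brightest probe set had a higher mean in DKO, with differences between 0.07 and 0.31. Other tested probe sets of Mcm2, Mcm6 and Mcm7 had the opposite sign, at -0.16, -0.04 and -0.13. Mcm5 had signals of 8094, 8542 and 9186 in DKO and 6300, 6637 and 7891 in WT, without overlap, and a difference of 0.31 ± 0.15 with a 95% interval of -0.01 to 0.64. A second probe set of Mcm5 did not overlap either, at 0.50 ± 0.23. Mcm4 had signals of 5924, 6511 and 6127 in DKO and 4486, 4937 and 5840 in WT, again without overlap, at 0.29 ± 0.16. For Mcm4 and Mcm5 the highest WT array was replicate 3.

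Mcm6 and Mcm7 set the tightest bounds of the ring. The difference of Mcm6 was 0.07 with a 95% interval of -0.23 to 0.37, and that of Mcm7 0.08 with an interval of -0.22 to 0.37. Mcm3 was at 0.23 ± 0.15 and Mcm2 at 0.15 ± 0.24, both with overlapping groups. Of the 5 tested probe sets of Mcm3, 4 were higher in DKO and 1, at -0.04, was lower. Probe sets that end in _x_at or _s_at may bind related transcripts, and those that stand here for Mcm2 to Mcm7 all end so. So do those that stand for Gins2, Pold1, Rfc2, Rfc4, Fen1 and Rrm2, and the second probe set of Gins1. Cdc45, the factor that joins GINS on the ring, was at -0.36 ± 0.33, and its second probe set at -0.47. Mcm10, which helps to start the helicase, was at 0.13 ± 0.30 with 3 probe sets of the same sign.

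**Figure D4:**
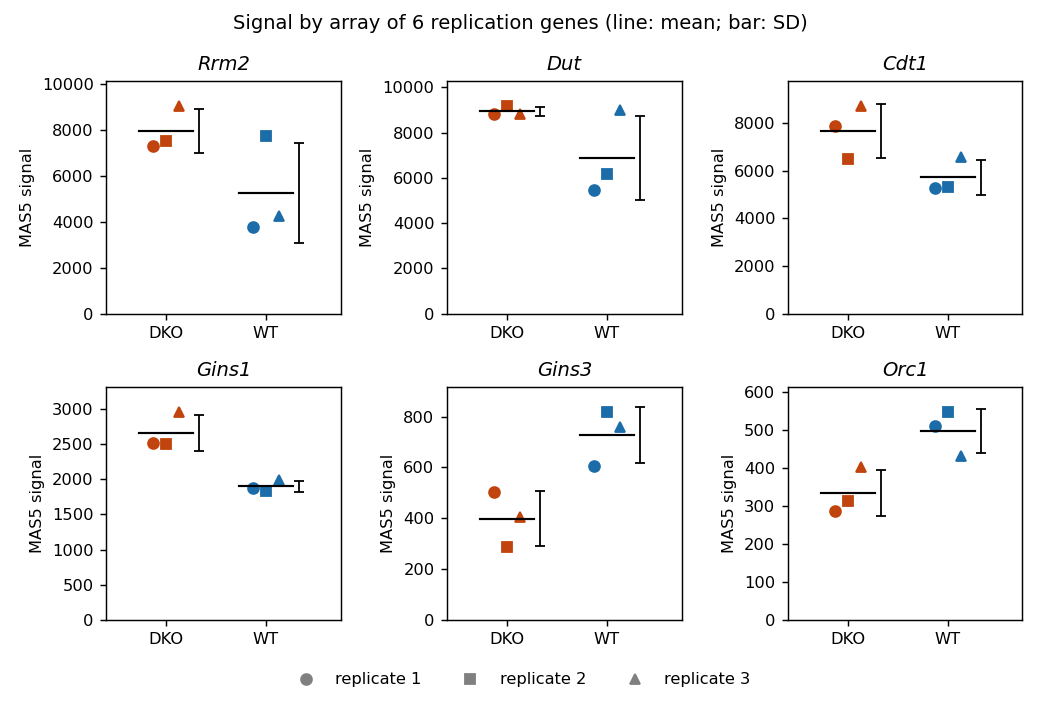
MAS5 signal (linear, from 0) in each array of Rrm2, Dut, Cdt1, Gins1, Gins3 and Orc1, with DKO left of WT. Points are arrays, horizontal lines group means and bars SD (n = 3). Gins1 lies higher and Gins3 and Orc1 lie lower in all DKO arrays than in all WT arrays, while WT replicate 2 of Rrm2, at 7741, lies among the DKO arrays.

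Polymerase genes had a median of 0.15, with 6 of 8 means higher in DKO, and none passed. The largest value of a brightest probe set rested on 1 array. Prim2, the large subunit of primase, had signals of 569, 2447 and 614 in DKO and 516, 496 and 509 in WT. DKO replicate 2 lay far above the other 5 arrays, and the difference was 0.89 ± 0.46 with a 95% interval of -0.12 to 1.90. A second probe set of Prim2 had 775, 1005 and 612 in DKO and 796, 308 and 670 in WT, with overlap, at 0.50 ± 0.36. Prim1, the catalytic subunit, had means higher in DKO in both of its probe sets, at 0.17 ± 0.18 and 0.53 ± 0.25, and the groups did not overlap in either.

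Pold1, the catalytic subunit of polymerase delta, had signals of 1671, 1813 and 4328 in DKO and 1624, 1124 and 2203 in WT. DKO replicate 3 was far above the other arrays, and the difference of 0.56 ± 0.35 was 0.13 without it. A second probe set of Pold1 had 108, 142 and 125 in DKO and 34.9, 46.2 and 99.0 in WT, without overlap, at 0.97 ± 0.46. Pold2, its partner, had signals of 303, 168 and 272 in DKO and 138, 151 and 251 in WT, with overlap, at 0.43 ± 0.40. The subunits of polymerase alpha, Pola1 and Pola2, were at 0.14 and -0.14. Those of polymerase epsilon, Pole and Pole2, were at -0.05 and 0.08. A second probe set of Pola2 went the other way, at 0.92 ± 0.42.

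Clamp and loader genes had a median of 0.14, with 4 of 6 means higher in DKO and 0 past the threshold. Pcna encodes the ring that holds polymerases on DNA, and had signals of 10656, 10963 and 13025 in DKO and 12363, 13664 and 11717 in WT. The groups overlapped and the difference was -0.13 ± 0.14, with an interval of -0.43 to 0.17. Pcna is a common marker of dividing cells, and its interval was narrow on both sides of 0. The share of dividing cells in the pools was not measured.

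Of the clamp loader genes, Rfc4 had signals of 1342, 1311 and 1458 in DKO and 971, 809 and 1241 in WT, a difference of 0.46 ± 0.24 without overlap. Rfc3 had signals of 849, 1095 and 1120 in DKO and 815, 746 and 771 in WT, at 0.38 ± 0.24, also without overlap. In both genes the second probe set had overlapping groups, at 0.47 for Rfc4 and, with the opposite sign, at -0.10 for Rfc3. Rfc2 and Rfc5, at 0.10 (other probe sets at 0.20 and -0.23) and -0.05, and the large subunit Rfc1, at 0.17, overlapped. The other probe sets of Rfc1 were at -0.26 and -0.37, against the sign of the brightest.

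Genes of single-strand binding and strand joining had a median of 0.08, with 5 of 5 means higher in DKO, overlapping groups in each and 0 past the threshold. Rpa3, the small subunit of the single-strand binding protein RPA, had signals of 1099, 830 and 1451 in DKO and 556, 716 and 1001 in WT, at 0.57 ± 0.30. Rpa1, the large subunit, had 8602, 8381 and 11176 in DKO and 7357, 7333 and 9261 in WT, at 0.23 ± 0.16. In both, the highest array of each group was its replicate 3. Fen1, the nuclease that trims Okazaki fragments, had 8568, 10105 and 15561 in DKO and 8485, 11044 and 12063 in WT, at 0.08 ± 0.21. Its sign turned without DKO replicate 3, to -0.16, and without WT replicate 1, to -0.06. Lig1, the ligase that seals them, and Rpa2 were at 0.07 and 0.06. A second probe set of Rpa2 was at 0.71 ± 0.39, with overlapping groups.

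Nucleotide supply genes had a median of 0.24, and 5 of 5 means were higher in DKO, with 0 past the threshold. Rrm2 is the small subunit of ribonucleotide reductase and limits the making of deoxynucleotides. Its signals were 7307, 7523 and 9057 in DKO and 3758, 7741 and 4271 in WT. WT replicate 2 lay within the DKO range and the other WT arrays far below it. The difference was 0.67 ± 0.24, with an interval of 0.14 to 1.19 and an adjusted p of 0.227 by limma.

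WT replicate 2 decided the call of Rrm2. Without it Rrm2 rose by 0.98 ± 0.18, with an adjusted p of 0.0208 by limma, in a fit in which 1.7% of all genes passed as higher in DKO. It was then the 1 replication gene past the threshold. The array left out holds the highest WT signal of Rrm2, so its removal had to raise the difference. A p-value without it is therefore no separate test. A second probe set of Rrm2 had 4861, 3138 and 4704 in DKO and 2087, 4507 and 1606 in WT, again with WT replicate 2 apart, at 0.74 ± 0.33. Without WT replicate 2 it was at 1.18 ± 0.24, with an adjusted p of 0.0347 by limma. The remaining probe set had its highest WT signal in the same array, 1692, against 1335 and 736 in the other WT arrays, and did not pass either way, at 0.38 ± 0.32 with all arrays and an adjusted p of 0.421 by limma without the array. This is the pool with the highest levels of the erythroid, B lineage and neutrophil lists, at 1.76, 1.41 and 1.56 above the 6-array mean in log2 units, and the part of those cells in its Rrm2 signal was not tested.

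Rrm1, the large subunit of the same enzyme, had signals of 9112, 8958 and 9505 in DKO and 7462, 8019 and 8427 in WT. The groups did not overlap, and the difference was 0.21 ± 0.13. Dut, which removes dUTP before it is built into DNA, had 8829, 9182 and 8834 in DKO and 5479, 6182 and 8997 in WT. The DKO arrays were nearly alike, WT replicate 3 lay among them, and the difference was 0.41 ± 0.18 (adjusted p = 0.340 by limma). Its second probe set was at -0.38 ± 0.41. Tyms, the thymidylate synthase, had 329, 405 and 278 in DKO and 156, 482 and 283 in WT, with the highest signal again in WT replicate 2, at 0.24 ± 0.42. In the other 3 probe sets of Tyms, at 0.48, 0.15 and 0.08, WT replicate 2 was the lowest WT array. Tk1, the thymidine kinase of dividing cells, was at 0.12 ± 0.31.

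Of the genes of histone supply and chromatin assembly, 2 of 3 were measured and 0 passed. Slbp, which binds the ends of histone transcripts, had signals of 8150, 7835 and 9925 in DKO and 7080, 8595 and 9125 in WT, with overlap. The difference of 0.06 ± 0.16 turned to -0.01 with quantile normalization. Chaf1b, a subunit of the chaperone that places histones on new DNA, had 421, 339 and 197 in DKO and 504, 263 and 459 in WT. Its groups overlapped, at -0.35 ± 0.39.

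Probe sets of a gene often disagreed. Of the 47 genes, 34 had more than 1 tested probe set, and in 22 of these all shared a sign. Of the 50 tested probe sets that did not stand for their gene, 14 had the opposite sign, 0 passed the threshold and 1, that of Rrm2 at 0.74, had an unadjusted p under 0.05.

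Genes that work beside the 47 gave like values. Of 27 other genes of origin firing and the fork 0 passed, 21 means were higher in DKO and the median was 0.27. The smallest adjusted p was that of Tipin, a fork protection factor, at 0.54 ± 0.17 (adjusted p = 0.166 by limma), with 5435, 5125 and 5581 in DKO and 3899, 3049 and 4214 in WT. Of 19 other nucleotide supply genes measured 0 passed, with 15 means higher and a median of 0.23. Ppat, an enzyme of early purine synthesis, was nearest, with signals of 3315, 3829 and 3317 in DKO and 2198, 1806 and 2109 in WT, at 0.77 ± 0.18 (adjusted p = 0.0660 by limma). Of 10 other chromatin duplication genes 0 passed, and the histone chaperone Nasp had the smallest p, with signals of 6100, 5199 and 6822 in DKO and 4555, 3432 and 4488 in WT, at 0.54 ± 0.18 without overlap.

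Among 12 measured E2F factors, their DP partners and pocket proteins 0 passed, and the 2 partner genes had differences of opposite sign. Tfdp2 had signals of 3020, 3770 and 2423 in DKO and 5500, 8233 and 4929 in WT, at -1.001 ± 0.227 (adjusted p = 0.0573 by limma). Tfdp1 had 5676, 5494 and 5540 in DKO and 3328, 3313 and 4215 in WT, at 0.63 ± 0.16 (adjusted p = 0.0975 by limma). Neither pair of groups overlapped, and Tfdp1 is named beside the gene with the smallest p after its values were seen. Of 10 fork checkpoint genes 0 passed, and Fancd2, a crosslink repair gene, was nearest, with signals of 745, 849 and 596 in DKO and 562, 406 and 550 in WT. These did not overlap, at 0.51 ± 0.28. Of 7 genes of the ubiquitin control of licensing 0 passed, and Dtl, which marks Cdt1 for destruction, was nearest, with signals of 3724, 2992 and 3191 in DKO and 2755, 3380 and 2304 in WT. These overlapped, at 0.24 ± 0.20.

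Mitotic genes served as a comparison list. Of 15 measured 0 passed, 11 means were higher in DKO and the median was 0.22. Top2a, the topoisomerase that untangles chromosomes, had signals of 4643, 3996 and 4734 in DKO and 3044, 3904 and 3469 in WT, at 0.36 ± 0.17. The mean level of this list was 0.26, -0.15 and 0.06 in DKO replicates 1 to 3 and -0.13, 0.21 and -0.25 in WT replicates 1 to 3. Its highest WT array was replicate 2, as for Rrm2.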

How the data were processed

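RNA of 6 pools (3 DKO, 3 WT) was hybridised to Affymetrix arrays. Per the submitters' processing notes, the authors' deposited intensity values are MAS5 signals, and each array's trimmed mean (2% off each end) is 500. The signals are on a linear scale. The software version and annotation are not given in the sources used here.

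Of 45101 probe sets 64 controls were left out. The analysis used log2(signal + 16). Probe sets in the lowest 40% by mean, about a signal of 53.2, were dropped, and 27022 were tested with limma 3.58.1 (R 4.3.3), eBayes with an intensity trend and Benjamini-Hochberg adjustment, at a threshold of 0.05. The added 16 makes the differences of low signals smaller. A gene stands for its brightest tested probe set with 1 symbol (34945 have 1, 932 several, 9160 none in the platform annotation), and 34741 matched RefSeq GRCm38.p6 by gene ID. The number of arrays limits the precision. The labels call the pools independent, so p-values measure the spread between pools.

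Arrays are printed for the genes with the smallest p of each sub-group, up to 3, or up to 5 for licensing and helicase, and for the gene with the smallest p of each list of genes that work beside them. Orc3, Tyms, Tfdp1 and the marker Kit were added after their values were seen. Signals of other probe sets of Prim2, Pold1 and Rrm2 are also printed outside this choice. The members and lists were chosen with earlier results of these data known. Same-numbered arrays had correlations of their deviations of 0.14, -0.03 and 0.05, and arrays of different numbers of -0.13 to 0.06. The highest was that of the replicates numbered 1. The numbers were not taken as pairs, and a fit with them as a block is given below. Alternatives were other pseudocounts, filters, normalizations and weights, a replicate block, and leaving out each array. The fit and the motif search were tested on simulated data. Figures were drawn with matplotlib 3.10.9 (Python 3.11.15).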

Additional observations from a re-analysis of the deposited data

How the results depend on the processing

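At an adjusted p under 0.05, 0 replication genes rose or fell under each alternative except without WT replicate 2, where 1, Rrm2, rose (0.98). With an array left out, 0 to 1 passed as higher and 0 as lower, the median of the measured genes was 0.14 to 0.21, and 32 to 39 genes had a higher DKO mean. Sub-group medians then ranged from 0.21 to 0.29 for licensing, 0.10 to 0.23 for helicase (0.23 without DKO replicate 3) and 0.09 to 0.23 for polymerase genes (0.09 without DKO replicate 1, 0.23 without DKO replicate 2). They ranged from 0.05 to 0.25 for clamp and loader genes (without WT replicates 2 and 3), 0.04 to 0.27 for binding and joining genes (without DKO replicates 3 and 1), 0.16 to 0.37 for nucleotide supply genes (without WT replicate 1 and DKO replicate 3) and -0.27 to -0.05 for histone and chromatin genes (without WT replicate 2 and DKO replicate 3). Over all probe sets, 218 rose and 152 fell, against 67 to 326 and 30 to 154 with an array left out. The counts were 134 and 74 with no filter, 66 and 22 with no intensity trend, and 391 and 347 at a threshold of 0.10. With median centring 96 fell, and with array quality weights 238 fell. Median centring moved the median of all probe sets by 0.11, and the medians to 0.27 for all measured genes, 0.36 for licensing, 0.25 for helicase and 0.26 for polymerase genes. Averaging the probe sets of each gene gave 0.41 for polymerase and -0.013 for clamp and loader genes. Slbp turned to -0.012 with quantile normalization, -0.041 without DKO replicate 3 and -0.044 without WT replicate 1, and Fen1 to -0.16 and -0.06 without the same 2 arrays. With an array left out, another probe set became the brightest of 4 genes, and the values are then those of that probe set. These were Prim2 (0.10), Prim1 (0.23) and Mcm10 (0.05) without WT replicate 2, Prim2 (0.32) and Orc4 (0.03) without DKO replicate 2, and Orc4 (-0.02) without DKO replicate 3. Otherwise the cause was not tested.

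With the replicate number as a block, 195 probe sets rose and 117 fell, 0 replication genes passed, and the median of the measured genes was 0.17. The smallest adjusted p of a replication gene was then 0.169 by limma, and 7 had an unadjusted p under 0.05. The share of all genes at that p is not given for this fit. The 3 pools per group and the spread between probe sets of a gene limit what small differences can show.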
